A study of Mus musculus with 80 samples.

Results

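Gene expression in the neocortex was compared with gene expression in the amygdala of the same adult female mice. All 16 neocortex and all 15 amygdala libraries of the count table were taken, from virgin and primiparous females alike, which is 31 of the 77 libraries of the series. They were paired by the animal number, and 15 animals had both regions. The 16th neocortex library, of virgin animal 4487, had no amygdala partner and entered levels and ranges but no paired test.

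The females were age-matched mice, C57BL/6 by the labels and C57BL/6J by the study's methods, that shared a barrier room, and the labels name no transgene, deletion or agent in any of them. Virgins (7 animals with both regions, 8 neocortex libraries) had never been mated. Primiparous females (8 animals with both regions) had been housed with a male, had raised a litter and were taken after weaning, 3 weeks later by the labels and at a longer interval by the study's methods. Contact with a male and reproductive experience therefore cannot be told apart. RNA was taken from bulk tissue of the left side, so fewer cells of a type and less RNA per cell cannot be told apart in any result here.

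The neocortex is a layered sheet in which glutamatergic projection neurons of upper and deep layers are joined by GABAergic interneurons, among them fast-spiking cells that hold parvalbumin. The amygdala is a group of nuclei of mixed origin. Its basolateral nuclei resemble cortex, its central and medial nuclei are rich in GABAergic cells that hold neuropeptides, and the medial nucleus is known for receptors of sex steroids. The amygdala lies beside the striatum, the basal forebrain and the hypothalamus, and a cortical dissection can reach the olfactory bulb at its front.

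Total counts ran from 8678050 to 31391961 per neocortex library (median 20498349) and from 11248560 to 19628734 per amygdala library (median 14633202). Libraries of each region were pooled together for sequencing, so region and sequencing pool cannot be told apart. In 3 neocortex libraries, of animals 405, 413 and 425, the summed level of 9 olfactory bulb markers was 20.3 to 66.0 CPM (counts scaled to a fixed library total), against 178 to 557 CPM in the other 13 neocortex libraries and 61.0 to 112 CPM in amygdala. The neocortex libraries of animals 421, 425 and 4493 held 3044 to 6198 CPM of Lars2 and 19.4 to 128 CPM of Rn7sk, against 261 to 530 CPM and 2.74 to 7.05 CPM in the others. Each of these sets of animals was also fitted alone or left out. Among the 45 gene lists, 6 had a median of opposite sign in animals 405, 413 and 425 alone, and 1 without animals 421, 425 and 4493, and these are named with their values below.

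Of 13016 genes tested, 3518 were higher in neocortex (27.0% of all tested) and 3334 were higher in amygdala (25.6%) at an adjusted p under 0.05 (edgeR quasi-likelihood test with the animal as a block, Benjamini-Hochberg adjustment over all genes), which is 6852 genes or 52.6% in either direction. Most of these differences were small. The median absolute log2 fold change of the called genes was 0.37, and 4995 of them differed by less than 1.5-fold. A difference of at least 2-fold was called for 274 genes higher in neocortex (2.11% of all tested) and 461 genes higher in amygdala (3.54%). At least 4-fold was reached by 57 and 102 genes, and at least 8-fold by 17 and 42. The median log2 fold change of all genes was 0.02. Throughout, a log2 fold change is neocortex over amygdala, so a negative value is a higher level in amygdala. Its error is a standard error derived from the test statistic of the fit on the 15 pairs, unless another fit is named.

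**Figure D1:**
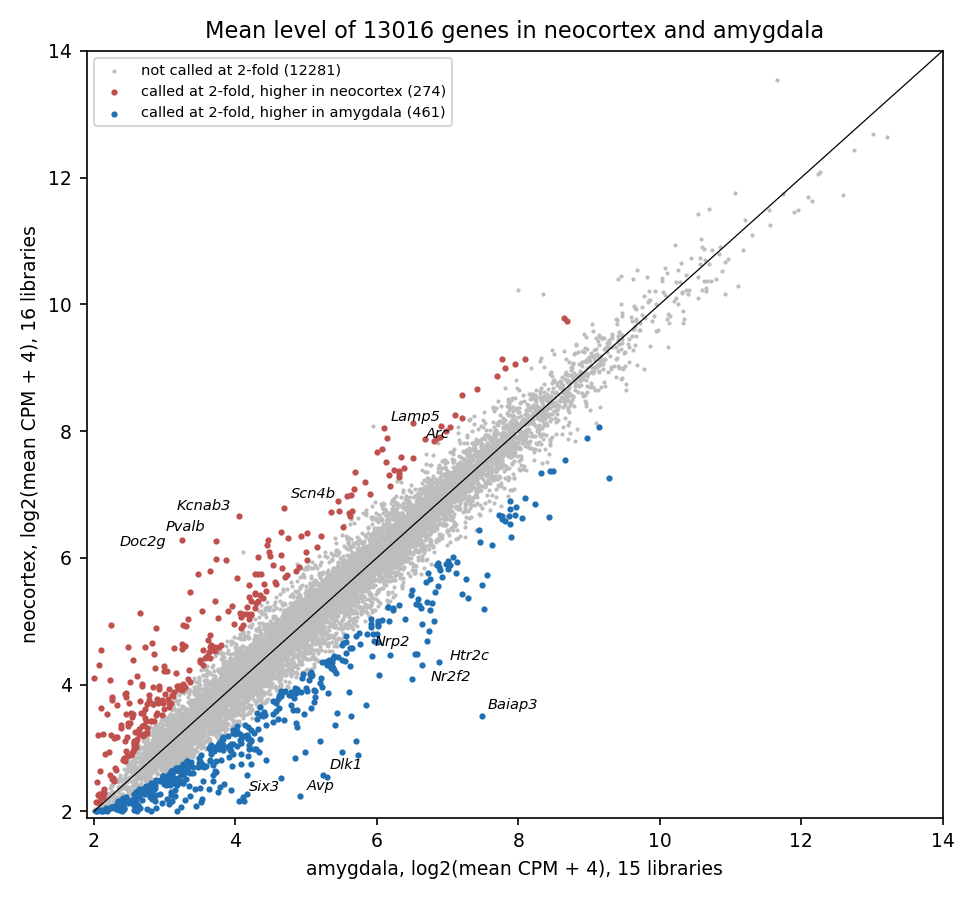
Mean level of each of the 13016 tested genes in amygdala (horizontal axis, 15 libraries) and neocortex (vertical axis, 16 libraries), both as log2(mean CPM + 4), with the line of equal level. Red points are the 274 genes called at 2-fold and higher in neocortex and blue points the 461 higher in amygdala; both sets stand off the line over the low and middle range of levels.

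In single animals, 299 to 716 genes differed by at least 1 on the scale of log2(CPM + 4), except for animal 427 with 1523. Its amygdala and neocortex libraries also held prolactin transcripts (Prl, 125 and 75.5 CPM, with at most 26.7 CPM in the other libraries). The groups did not overlap at all, with every library of the higher region above every library of the lower one in CPM, for 430 genes in the direction of neocortex (3.30% of all tested) and 476 in the direction of amygdala (3.66%). Of the genes called at 2-fold, 166 of 274 and 252 of 461 had groups that did not overlap, and 222 and 347 differed in the same direction in all 15 animals. Within single animals, 253 to 274 of the 274 neocortex genes and 431 to 459 of the 461 amygdala genes lay in the direction of the call. Since these genes were called on the same animals, these shares describe the calls and are no separate test.

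Of the 15 called genes with the highest log2 fold changes, among those at 10 CPM or more in neocortex and higher in neocortex in all 15 animals, 14 are described in turn. For each gene the lowest, the median and the highest library are given. A marker of inhibitory neurons and subunits of ion channels were among the 10 described first, each of which had a log2 fold change of at least 2 also in animals 405, 413 and 425 alone. Pvalb, the calcium-binding protein parvalbumin of fast-spiking interneurons (chr15:78191114-78206400, mm10), was at 54.9, 69.7 and 116 CPM in neocortex and 6.7, 9.06 and 12.5 CPM in amygdala. All neocortex libraries lay above all amygdala libraries, with a log2 fold change of 2.94 ± 0.07 (adjusted p = 6.8e-18). Kcnab3, an accessory subunit of voltage-gated potassium channels (chr11:69326258-69333042), was at 80.8, 96.5 and 116 CPM in neocortex and 7.61, 12.4 and 18.2 CPM in amygdala, again without overlap (log2 fold change 2.93 ± 0.10, adjusted p = 2.2e-16). Scn4b, an accessory sodium channel subunit (chr9:45138395-45154152), was at 85, 108 and 131 CPM in neocortex and 7.71, 13.2 and 55 CPM in amygdala (2.54 ± 0.24, adjusted p = 9.6e-08). Its groups did not overlap either, but its amygdala libraries were spread widely, with 36.3 to 55.0 CPM in the amygdala of animals 405, 409, 415 and 4488.

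Adra1d, the alpha-1D adrenergic receptor (chr2:131545850-131562283), was at 42.8, 50.6 and 59.6 CPM in neocortex and 4.03, 8.62 and 16.3 CPM in amygdala (2.64 ± 0.12, adjusted p = 4.6e-14), and its groups did not overlap. Robo3, an axon guidance receptor (chr9:37415669-37433246), was at 25.4, 47.9 and 83.2 CPM in neocortex and 3.46, 6.03 and 14.4 CPM in amygdala (2.78 ± 0.16). Ighm, the heavy chain gene of immunoglobulin M, was also far higher in neocortex, at 32.3, 39.2 and 51.6 CPM in neocortex and 1.6, 5.96 and 9.04 CPM in amygdala (2.67 ± 0.12, adjusted p = 4.4e-14). Hkdc1, a hexokinase domain gene, was at 14.8, 18.6 and 22.4 CPM in neocortex and 1.23, 2.91 and 7.07 CPM in amygdala (2.6 ± 0.17), Ovol2, a zinc finger gene, was at 7.26, 9.86 and 13.8 CPM in neocortex and 0, 0.615 and 2.85 CPM in amygdala (3.87 ± 0.34), and the transcript 9130024F11Rik was at 14.9, 20.8 and 28.3 CPM in neocortex and 0.683, 2.67 and 10.3 CPM in amygdala (2.91 ± 0.21). The transcript 5031426D15Rik varied strongly within both regions, and its groups overlapped, at 1.58, 7.88 and 28.9 CPM in neocortex and 0.175, 1.33 and 5.0 CPM in amygdala (2.52 ± 0.36). Lamp5, a membrane protein of neocortical interneurons and upper layers (chr2:136052239-136069917) that is not among the 15, was at 213, 259.7 and 341 CPM in neocortex and 52.9, 65.5 and 84.5 CPM in amygdala (1.98 ± 0.06).

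The other 4 of the 14 were lowest in the same neocortex libraries as the olfactory bulb markers, and Doc2g is itself on that marker list. Animals 405, 413 and 425 were set apart by the sum of those markers, so the low level of Doc2g in them follows in part from that choice. S100a5, a calcium-binding protein of olfactory sensory neurons, was at 0.049, 14.3 and 39.3 CPM in neocortex and 0, 0 and 1.47 CPM in amygdala. Omp, the olfactory marker protein, was at 0.486, 22.7 and 71.6 CPM in neocortex and 0, 0.345 and 5.15 CPM in amygdala. Both were near 0 in most amygdala libraries, and both had overlapping groups. Doc2g, a gene of the mitral cells of the olfactory bulb, was at 4.96, 76.7 and 169 CPM in neocortex and 2.69, 5.25 and 9.43 CPM in amygdala, and Nmb, which encodes the peptide neuromedin B, was at 2.46, 13.3 and 30.7 CPM in neocortex and 0.611, 1.71 and 3.2 CPM in amygdala. In the neocortex libraries of animals 405, 413 and 425, Omp was at 0.486 to 0.691 CPM and Doc2g at 4.96 to 17.4 CPM. In a fit on those 3 animals alone the log2 fold change of Omp was 1.2 instead of 5.44, that of Doc2g 0.52 instead of 3.47 and that of Nmb 1.19 instead of 2.73. S100a5 was at 0.0486 to 0.576 CPM in those libraries and at 1.88 to 39.3 CPM in the other 13, and its fold is not given because its amygdala libraries were near 0. For Pvalb, Kcnab3, Adra1d and Scn4b the same fit gave 2.94, 2.64, 2.61 and 2.27.

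At the other end 14 of the 15 genes chosen in the same way for amygdala are described, and they are known in part from the hypothalamus and from neuropeptide systems. Baiap3, a regulator of the release of dense-core vesicles (chr17:25242659-25256364), was at 3.26, 7.41 and 9.7 CPM in neocortex and 93.1, 169 and 259 CPM in amygdala. All amygdala libraries lay far above all neocortex libraries, with a log2 fold change of -4.52 ± 0.14 (adjusted p = 9.5e-16). Dlk1, a delta-like membrane protein that is imprinted and found in the central amygdala (chr12:109452823-109463336), was at 0.777, 1.6 and 3.98 CPM in neocortex and 21.9, 34.9 and 49.4 CPM in amygdala (-4.13 ± 0.16, adjusted p = 4.4e-15). Six3, a homeobox transcription factor of the ventral forebrain (chr17:85613608-85629302), was at 0.146, 0.517 and 1.73 CPM in neocortex and 6.69, 11.3 and 26 CPM in amygdala (-4.33 ± 0.15, adjusted p = 6.4e-16). Npy2r, a receptor for neuropeptide Y (chr3:82538383-82548084), was at 1.38, 3.08 and 5.35 CPM in neocortex and 17, 22.7 and 36.1 CPM in amygdala (-3.0 ± 0.16). Nts, which encodes neurotensin, was at 0.233, 1.13 and 1.53 CPM in neocortex and 6.69, 11.8 and 15.7 CPM in amygdala (-3.46 ± 0.16). None of these genes had overlapping groups.

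Avp, which encodes vasopressin, varied widely between amygdala libraries. Its levels were 0.046, 0.466 and 4.04 CPM in neocortex and 1.4, 26.4 and 61.1 CPM in amygdala, and its groups overlapped. The amygdala libraries of animals 418 and 4490 were at 1.40 and 2.44 CPM and those of animals 409 and 4489 at 61.1 and 58.6 CPM, and each was above the neocortex library of the same animal (log2 fold change -4.98 ± 0.43, adjusted p = 3.6e-08). The summed level of 12 hypothalamic markers, Avp and Baiap3 among them, was 6.27 to 24.4 CPM in neocortex and 140 to 309 CPM in amygdala, with a median of 1906 CPM in the hypothalamus libraries of the series. Baiap3 alone made up 57.7% to 93.6% of the sum in the amygdala libraries. The other 11 markers summed to 2.42 to 17.4 CPM in neocortex and 9.01 to 88.6 CPM in amygdala, higher in amygdala in 15 of 15 animals, against a median of 1201 CPM in hypothalamus. Their part in the amygdala values was not tested.

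The remaining leading amygdala genes included Gpr101, an orphan G protein-coupled receptor, at 0.581, 1.36 and 5.64 CPM in neocortex and 15.8, 35.8 and 56.7 CPM in amygdala (-4.29 ± 0.21). Magel2, an imprinted gene of the Prader-Willi region, was at 0.343, 0.845 and 1.22 CPM in neocortex and 7.56, 14.1 and 21.3 CPM in amygdala (-4.05 ± 0.15), and Irs4, an insulin receptor substrate, was at 0.048, 0.521 and 0.878 CPM in neocortex and 5.59, 11.5 and 23.4 CPM in amygdala (-4.59 ± 0.18). Arhgap36, a gene of the GTPase-activating protein family, was at 0.165, 0.570 and 0.693 CPM in neocortex and 5.32, 14 and 19.7 CPM in amygdala (-4.86 ± 0.19). Igsf1 was at 0.334, 1.88 and 3.19 CPM in neocortex and 10.05, 19.8 and 33.9 CPM in amygdala (-3.5 ± 0.15), AW551984 at 2.54, 3.64 and 4.88 CPM in neocortex and 21.3, 41.9 and 61.3 CPM in amygdala (-3.49 ± 0.11), Ecel1, an endothelin-converting enzyme-like protease, at 2.86, 3.82 and 7.04 CPM in neocortex and 29.96, 45.7 and 69.9 CPM in amygdala (-3.38 ± 0.13) and Ngb, which encodes neuroglobin, at 2.02, 3.75 and 4.89 CPM in neocortex and 16.9, 28.4 and 39.4 CPM in amygdala (-2.92 ± 0.14). In all of those named here the lowest amygdala library was above the highest neocortex library. In the 3 animals with few olfactory bulb transcripts the log2 fold changes of these genes ran from -5.03 for Arhgap36 to -2.6 for Ngb.

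**Figure D2:**
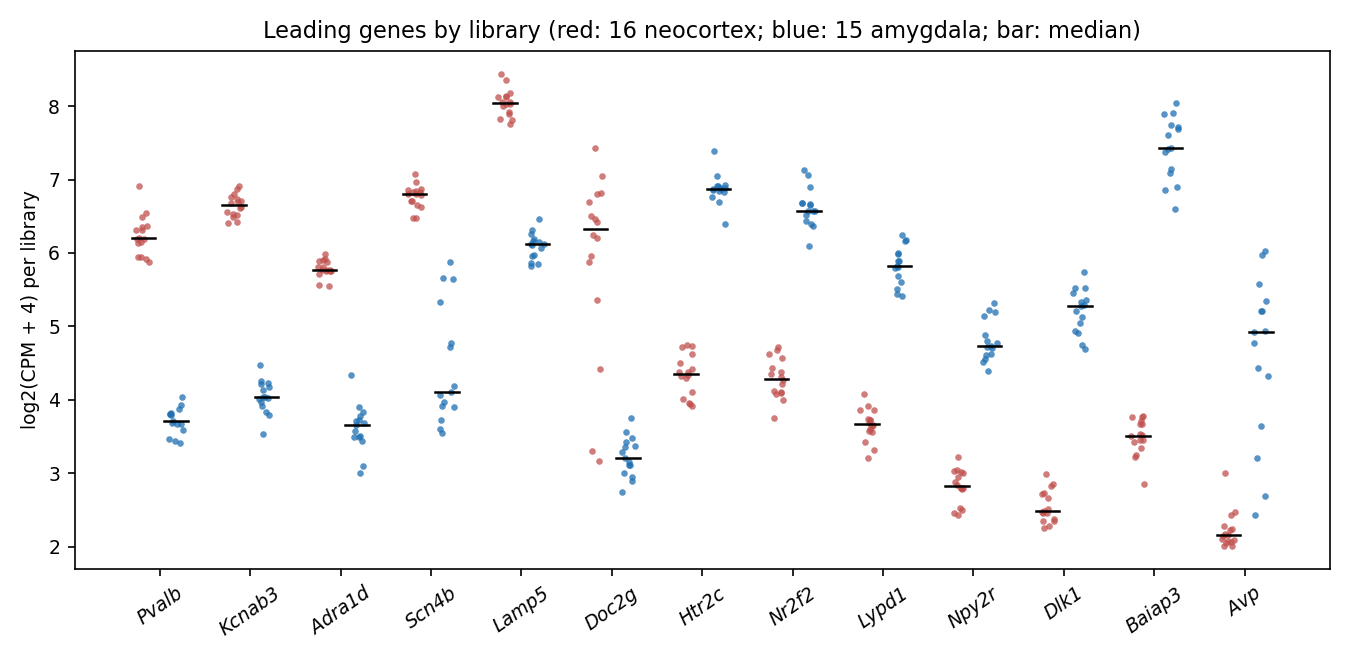
Level of 13 genes in every library as log2(CPM + 4), with the 16 neocortex libraries in red, the 15 amygdala libraries in blue and the median as a bar. The groups are apart for all genes shown but Doc2g, whose neocortex libraries of animals 405, 413 and 425 are low, and Avp, whose amygdala libraries run from 1.40 to 61.1 CPM.

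The promoters of 5 leading genes are shown because these genes stand on opposite sides of the comparison. They are the 120 bases before the transcription start that the RefSeq promoter table gives (GRCm38.p6), which for Scn4b and Six3 lies inside the gene span given above, and are written 5′ to 3′ on the strand of the gene, with matches on either strand in capitals. The letters searched were TATAAA (the core of the box that positions transcription starts), then TAATTA (a core that homeodomain proteins bind), then TGACG (the start of the cyclic AMP response element) and also CCAAT (the box bound by nuclear factor Y), which do not share letters in these stretches. Scn4b (chr9:45138504-45138623, plus strand) is higher in neocortex, and Dlk1 (chr12:109452703-109452822, plus strand), Six3 (chr17:85620714-85620833, plus strand), Nts (chr10:102490419-102490538, minus strand) and Npy2r (chr3:82548086-82548205, minus strand) are higher in amygdala.
Scn4b: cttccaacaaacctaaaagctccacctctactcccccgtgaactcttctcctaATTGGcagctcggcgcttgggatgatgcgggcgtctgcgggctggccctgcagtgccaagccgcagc
Dlk1: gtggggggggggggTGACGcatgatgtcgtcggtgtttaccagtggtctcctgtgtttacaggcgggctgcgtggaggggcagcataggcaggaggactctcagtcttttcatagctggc
Six3: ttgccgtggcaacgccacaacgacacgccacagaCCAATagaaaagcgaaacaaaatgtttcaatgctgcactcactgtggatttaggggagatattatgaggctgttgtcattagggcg
Nts: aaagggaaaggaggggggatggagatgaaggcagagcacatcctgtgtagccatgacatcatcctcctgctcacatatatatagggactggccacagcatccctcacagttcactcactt
Npy2r: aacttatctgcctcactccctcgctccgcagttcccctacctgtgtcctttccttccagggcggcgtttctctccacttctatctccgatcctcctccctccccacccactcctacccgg
In these stretches CCAAT was found in Scn4b and Six3 and TGACG in Dlk1, and the other letters searched were not in these windows. Over the 250 bases upstream of the start, CCAAT was found in 36.2% of the 10260 tested genes with a promoter in the table, in 28.3% of the 198 such genes called at 2-fold in neocortex and in 33.7% of the 350 called at 2-fold in amygdala. TGACG was found in 27.3%, 19.2% and 13.4%, TATAAA in 6.01%, 6.57% and 8.57%, and TAATTA in 2.19%, 3.54% and 2.29%. The median number of CG dinucleotides in the 250 bases was 16 over all tested genes, 10.5 in the neocortex set and 11 in the amygdala set. Over all 27025 genes of the table, each with the first start listed, the shares were 34.5% for CCAAT, 17.9% for TGACG, 13% for TATAAA and 4.9% for TAATTA. These shares are descriptions and were not tested.

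Gene lists are given by how many members were called, to be read beside the 27.0% and 25.6% of all tested genes that were called in each direction. The fit on animals 405, 413 and 425 alone called 962 genes in neocortex and 1224 in amygdala. Its list counts are to be read beside those. The filter on low values was set over all regions of the series, so a gene could pass it through a region other than these, and 897 of the 13016 genes did. Genes of cortical layers did not all lie on the side of the neocortex. Of 9 genes of upper-layer projection neurons, 5 were higher in neocortex and 4 in amygdala, with a list median of 0.32, which was -0.03 in animals 405, 413 and 425 alone. Their summed level went the other way and was higher in amygdala in 15 of 15 animals, at 439 to 656 CPM in neocortex and 623 to 697 CPM in amygdala. Rorb, a nuclear receptor of layer 4, was at 33.8, 48 and 64 CPM in neocortex and 17, 27.4 and 38.7 CPM in amygdala (0.78 ± 0.10, adjusted p = 1.1e-06), and Cux2 at 47, 94.6 and 131 CPM in neocortex and 51.5, 59.5 and 87.4 CPM in amygdala (0.55 ± 0.09). Otof, which encodes otoferlin, a protein of vesicle release, was higher in amygdala, at 13.1, 26.1 and 31.5 CPM in neocortex and 75.6, 98.5 and 131 CPM in amygdala without overlap (-2.05 ± 0.09, adjusted p = 4.4e-14), and so was Unc5d, a netrin receptor, at 27.8, 46.4 and 55.8 CPM in neocortex and 84.5, 102 and 112 CPM in amygdala (-1.18 ± 0.09). Of 15 deep-layer genes, 5 were higher in neocortex, 4 in amygdala and 6 were not called, with a median of -0.02, which was 0.02 without animals 421, 425 and 4493. Syt6, a synaptotagmin of layer 6 cells, was at 20.4, 50.8 and 75.4 CPM in neocortex and 7.33, 12.5 and 16 CPM in amygdala (1.93 ± 0.14; 1.06 in animals 405, 413 and 425, whose neocortex libraries were the 3 lowest), and Cplx3, a complexin of subplate cells, at 18.5, 23.3 and 31.5 CPM in neocortex and 4.85, 8.03 and 14.6 CPM in amygdala (1.5 ± 0.12). Fezf2, which specifies subcortical projection neurons, had mean levels of 30.1 and 14.6 CPM in neocortex and amygdala (1.07 ± 0.10). Rprm was at 42.2, 48.2 and 73.3 CPM in neocortex and 84.5, 100.4 and 133 CPM in amygdala (-1.03 ± 0.06) and Ntsr1, a neurotensin receptor of layer 6 cells, at 6.01, 7.74 and 10.6 CPM in neocortex and 10.2, 14 and 19.7 CPM in amygdala (-0.85 ± 0.08), both higher in amygdala.

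Genes of amygdala nuclei were mostly higher in amygdala. Of 5 basolateral genes 3 were higher in amygdala, all at 2-fold, 1 in neocortex and 1 was not called, with a median of -1.91. Nr2f2, a nuclear receptor of caudal forebrain cells, was at 9.45, 15.6 and 22.3 CPM in neocortex and 64.5, 91.5 and 136 CPM in amygdala (-2.59 ± 0.10, adjusted p = 5.8e-15), and Lypd1 at 5.25, 8.75 and 12.8 CPM in neocortex and 38.5, 52.8 and 72 CPM in amygdala (-2.57 ± 0.10). Lmo3 had means of 49 and 184 CPM (-1.91), and Rspo2, a Wnt agonist, was higher in neocortex at 11.7, 16.9 and 22.5 CPM in neocortex and 5.15, 10.03 and 16.9 CPM in amygdala (0.69 ± 0.12). Of 13 central amygdala genes, 12 were higher in amygdala, 6 of them at 2-fold, with a median of -0.97. Penk and Tac1 of this list are also on the list of striatal markers, and Tac1 holds the median of both. Prkcd, a protein kinase C of central amygdala cells, was at 9.45, 11.6 and 14.2 CPM in neocortex and 17, 22 and 31.7 CPM in amygdala (-0.96 ± 0.07), Wfs1 had means of 98.9 and 245 CPM (-1.29), and the exception was Crh, corticotropin-releasing hormone, at 9.56, 13.4 and 21.8 CPM in neocortex and 4.97, 7.79 and 10.05 CPM in amygdala (0.81 ± 0.12, adjusted p = 5.6e-06; 0.26 in animals 405, 413 and 425). Of 9 medial amygdala genes 7 were tested, and all 7 were higher in amygdala, 5 at 2-fold. Of the 7 only 3 reached the filter within neocortex and amygdala, 1 of them at 2-fold, and the other 4 passed it through other regions. Esr1 is described with the hormone receptors, and the transcription factors Sim1, Otp, Lhx9 and Lhx5, which are these 4, were at means of 1.13 to 4.63 CPM in amygdala and 0.0157 to 0.499 CPM in neocortex. Sim1 and Otp are also on the list of hypothalamic markers. Of 7 genes of the intercalated cell masses 3 were higher in each region, with a median of 0.22, which was -0.74 in animals 405, 413 and 425 alone. Drd1, a dopamine receptor, was at 8.08, 10.2 and 14.5 CPM in neocortex and 14.2, 20.8 and 29.1 CPM in amygdala (-1.03 ± 0.10) and Erbb4, a neuregulin receptor, at 1.37, 9.64 and 21.9 CPM in neocortex and 20.1, 23.3 and 30.3 CPM in amygdala (-1.24 ± 0.25), whereas Meis2 (0.48), Tshz1 (0.52) and Pax6 (0.35) were higher in neocortex in all animals together and had log2 fold changes of -0.32, -0.41 and -0.74 in animals 405, 413 and 425.

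**Figure D3:**
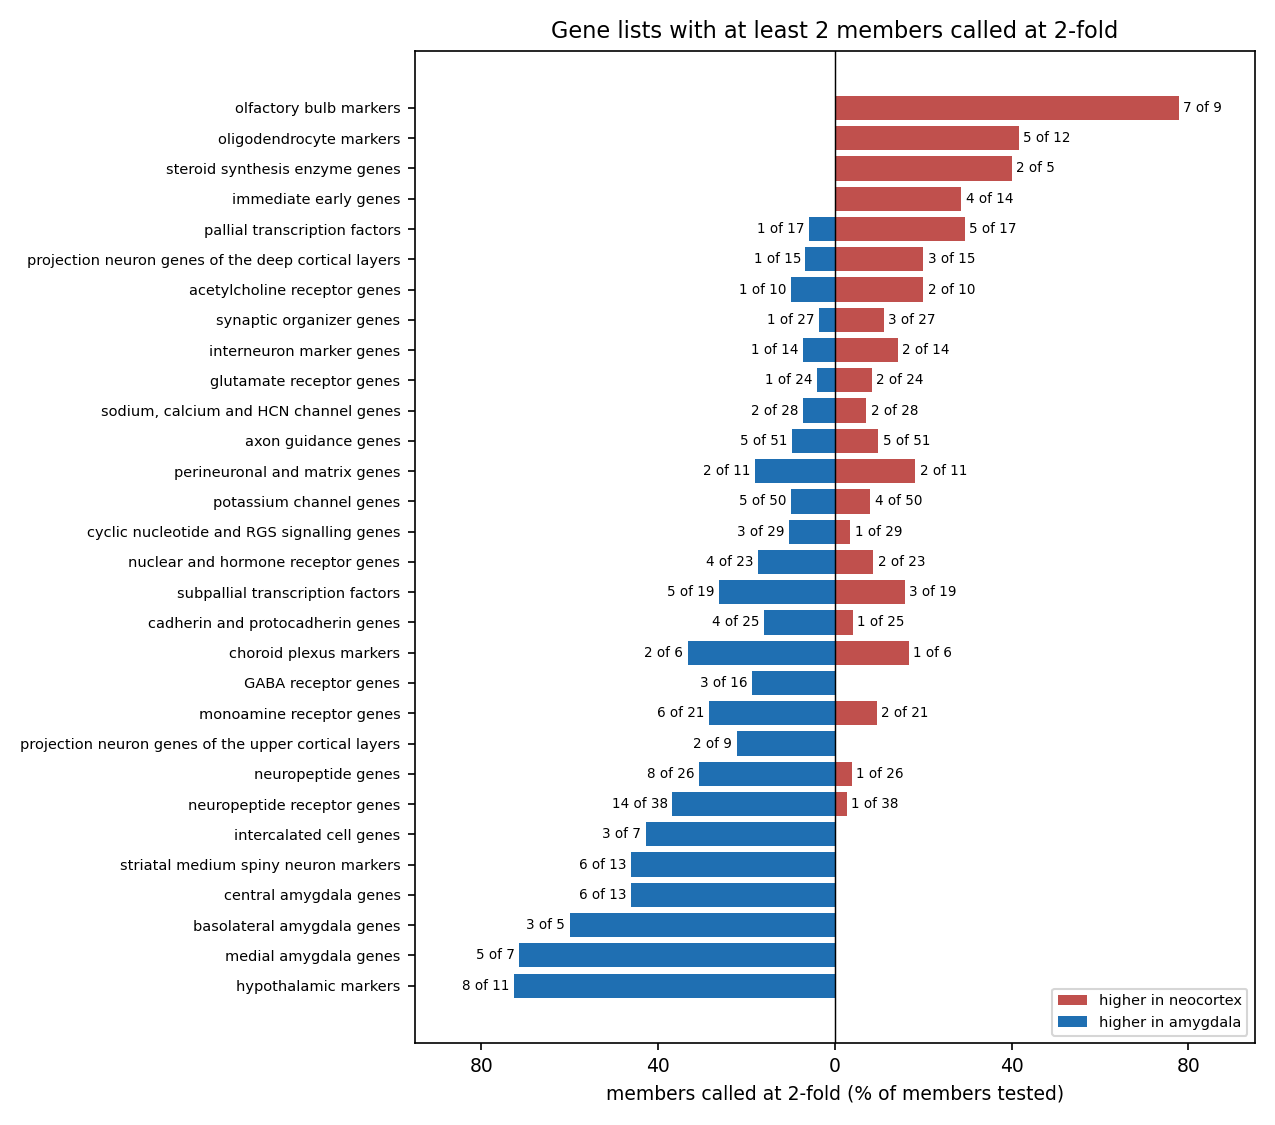
Share of each gene list that was called at 2-fold, in percent of the members tested, with members higher in neocortex to the right in red and members higher in amygdala to the left in blue. Lists with at least 2 such members are shown, and over all 13016 genes the shares are 2.11% and 3.54%.

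Transcription factors of the pallium, the part of the embryonic forebrain that forms the cortex, were mostly higher in neocortex. Of 17 members 13 were higher in neocortex and 3 in amygdala, with a median of 0.55. Neurod6 had means of 70.1 and 17.9 CPM (1.98 ± 0.11), Pou3f1 of 39.6 and 15.4 CPM (1.39), Emx1 of 24.4 and 13.2 CPM (0.88) and Tbr1, a factor of deep-layer neurons, of 132 and 89 CPM (0.58). Eomes, at 0.293, 25.2 and 32.1 CPM in neocortex and 0, 0.262 and 0.981 CPM in amygdala, is also an olfactory bulb marker and was at 0.293 to 2.65 CPM in the neocortex libraries of animals 405, 413 and 425. Bhlhe22 was the pallial factor that was highest in amygdala relative to neocortex, at 35.3, 48.1 and 58.3 CPM in neocortex and 68.7, 107 and 136 CPM in amygdala (-1.14 ± 0.09), and Lhx2 was at 63.5, 73.3 and 87.5 CPM in neocortex and 71.6, 94.4 and 109.7 CPM in amygdala (-0.31 ± 0.07). Of 19 subpallial factors 7 were higher in each region, and of the 16 that reached the filter within the 2 regions 7 were higher in neocortex and 4 in amygdala. Foxp1 was at 79.4, 104 and 124 CPM in neocortex and 27.1, 41.2 and 51.8 CPM in amygdala (1.33 ± 0.08) and Dlx1, a homeobox factor of GABAergic cells, at means of 30.6 and 14 CPM (1.07; -0.02 in animals 405, 413 and 425) on the side of neocortex. Sp8, a factor of olfactory bulb interneurons, was at 2.58, 22.3 and 32.9 CPM in neocortex and 1.04, 2.69 and 4.19 CPM in amygdala (2.77 ± 0.38), with -0.13 in animals 405, 413 and 425. Like Eomes it is on the olfactory bulb marker list by which these animals were set apart. Zfhx3 was at 5.12, 6.44 and 8.45 CPM in neocortex and 7.79, 17.6 and 28.5 CPM in amygdala (-1.5 ± 0.11) on the side of amygdala, together with Six3, and Nkx2-1 and Isl1 at means of 2.75 and 1.34 CPM in amygdala and 0.101 and 0.136 CPM in neocortex. The median of the list was 0.31, and -0.63 in animals 405, 413 and 425 alone, where 1 member was called in neocortex and 9 in amygdala. That fit called 962 and 1224 genes in all.

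Among 26 neuropeptide genes tested, 6 were higher in neocortex and 13 in amygdala, of which 8 at 2-fold. The filter was reached within the 2 regions by 18 of the 26, of which 6 and 9 were called, with 4 at 2-fold in amygdala. Those higher in neocortex were Nmb, Crh and 4 peptides that cortical interneurons are known to make. Npy, neuropeptide Y, was at 80.7, 87.5 and 152 CPM in neocortex and 36.6, 49.9 and 57.6 CPM in amygdala (0.91 ± 0.07, adjusted p = 2.4e-10), Cck, cholecystokinin, had means of 350.1 and 205 CPM (0.75), Vip, vasoactive intestinal peptide, of 55.5 and 31.1 CPM (0.80), and Cort, cortistatin, of 7.02 and 4.63 CPM (0.54). Those higher in amygdala included Penk, the precursor of enkephalins, at 27.5, 73.4 and 116 CPM in neocortex and 126, 163 and 270.2 CPM in amygdala (-1.26 ± 0.15; -2.1 in animals 405, 413 and 425) and without overlap, Cartpt at means of 6.87 and 21.9 CPM (-1.69), Tac1, which encodes substance P, at 15 and 29.5 CPM (-0.97), Pnoc, the nociceptin precursor, at 8.66 and 14.5 CPM (-0.74) and Sst, somatostatin, at 191 and 257 CPM (-0.45). Oxt, oxytocin, had means of 0.413 and 3.78 CPM, and Pmch and Hcrt, peptides of the lateral hypothalamus, were at 1.38 and 1.40 CPM in amygdala and 0.116 and 0.144 CPM in neocortex.

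Neuropeptide receptors were more often higher in amygdala, with 22 of 38 tested against 8 in neocortex, and 14 against 1 at 2-fold. The list median was -0.62. The filter was reached within the 2 regions by 24 of the 38, with a median of -0.35. Of these, 7 were higher in neocortex and 13 in amygdala, with 6 at 2-fold in amygdala. Calcr, the calcitonin receptor, was at 0, 0 and 0.233 CPM in neocortex and 1.87, 4.24 and 10.5 CPM in amygdala, so that most neocortex libraries had no count. Trhr, the receptor of thyrotropin-releasing hormone, had means of 3.03 and 17.7 CPM (-2.58 ± 0.18), Oxtr, the oxytocin receptor, of 8.08 and 25.4 CPM (-1.64 ± 0.10, adjusted p = 7.9e-12), and Tacr1, the substance P receptor, of 4.29 and 14.3 CPM (-1.72 ± 0.20). Oprm1, the mu opioid receptor, was at means of 0.354 and 1.99 CPM (-2.37), and Rxfp3, a relaxin-family receptor, at 2.66 and 8.82 CPM (-1.66). On the side of neocortex, Crhr1, a receptor of corticotropin-releasing hormone, was at 26.1, 35.8 and 45.6 CPM in neocortex and 12.3, 17.5 and 24 CPM in amygdala (0.98 ± 0.10; 0.47 in animals 405, 413 and 425), while its paralogue Crhr2 had means of 1.31 and 2.81 CPM and was higher in amygdala (-1.07). Vipr1 had means of 34 and 19.5 CPM (0.80). Vipr2 was at 0.438, 11.4 and 22.1 CPM in neocortex and 0.240, 1.6 and 2.52 CPM in amygdala (2.69 ± 0.40) with -0.69 in animals 405, 413 and 425.

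Receptors of hormones lay on both sides. Of 23 nuclear and hormone receptors tested, 12 were higher in amygdala and 7 in neocortex. Esr1, the estrogen receptor alpha, was at 0.196, 1.16 and 1.94 CPM in neocortex and 4.27, 9.47 and 12.8 CPM in amygdala (-3.05 ± 0.17, adjusted p = 1.3e-12), and Prlr, the prolactin receptor, at 0.783, 1.36 and 2.38 CPM in neocortex and 4.51, 9.27 and 23 CPM in amygdala (-2.86 ± 0.17, adjusted p = 5.6e-12), both with all amygdala libraries above all neocortex libraries. Rxrg, a retinoid X receptor, had means of 6.06 and 25.2 CPM (-2.05). Thra, a thyroid hormone receptor, had means of 502 and 711 CPM (-0.50) and Nr3c2, the mineralocorticoid receptor, of 20.05 and 32.6 CPM (-0.74). On the other side stood Pgr, the progesterone receptor, at means of 37.5 and 27.9 CPM (0.40, adjusted p = 1.8e-04), Esrrg, an orphan receptor of the estrogen-related family, at 20.7, 30.5 and 40.04 CPM in neocortex and 11.8, 14.5 and 18.8 CPM in amygdala (1.03 ± 0.09), Esrra at 75.2 and 44.8 CPM (0.74) and Nr3c1, the glucocorticoid receptor, at 113 and 96.4 CPM (0.19). Of 5 tested genes of steroid synthesis and conversion 2 were higher in neocortex. Hsd11b1, which activates glucocorticoids, was at 10.5, 17.6 and 21.2 CPM in neocortex and 6.16, 7.31 and 12.1 CPM in amygdala (1.13 ± 0.11), and Cyp11a1, the cholesterol side-chain cleavage enzyme, at 2.82, 6.0 and 9.32 CPM in neocortex and 0.398, 1.71 and 2.27 CPM in amygdala (1.92 ± 0.17).

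Of 21 receptors for serotonin, dopamine, noradrenaline and histamine, 9 were higher in amygdala and 5 in neocortex. Htr2c, the serotonin 2C receptor, was at 11.1, 16.5 and 22.9 CPM in neocortex and 80.1, 114 and 164 CPM in amygdala without overlap (-2.84 ± 0.09, adjusted p = 1.1e-16), whereas Htr2a, with means of 12.9 and 12.4 CPM (0.06 ± 0.18, adjusted p = 0.807), and Htr1a, with 17.3 and 17.8 CPM (-0.07 ± 0.09, adjusted p = 0.547), did not pass the test. Drd2 was at 0.571, 1.93 and 5.24 CPM in neocortex and 1.91, 5.07 and 12.9 CPM in amygdala (-1.14 ± 0.24). The adrenergic receptors lay on both sides. Adra1d and Adra1b, at 25.4, 30.2 and 36.7 CPM in neocortex and 8.15, 13.3 and 19.5 CPM in amygdala (1.22 ± 0.11), were higher in neocortex, and Adra1a, with means of 7.11 and 8.66 CPM (-0.32), and Adra2a, with 20.7 and 41.7 CPM (-1.01), were higher in amygdala. Of 10 acetylcholine receptors 6 were higher in neocortex and 2 in amygdala, with a median of 0.56. The filter was reached within the 2 regions by 7 of the 10, of which 4 and 1 were called, with a median of 0.49. In animals 405, 413 and 425 alone 2 and 1 of the 10 were called with a median of 0.19, in a fit that called 962 and 1224 genes in all. Higher in neocortex were among others Chrm3 at 32.2, 49.9 and 57.5 CPM in neocortex and 13.3, 27.3 and 36.3 CPM in amygdala (0.86 ± 0.09) and Chrm2 at 1.37, 5.47 and 11.2 CPM in neocortex and 1.03, 3.55 and 5.34 CPM in amygdala (0.71 ± 0.23). Chrna7, the nicotinic alpha-7 subunit, was higher in amygdala at 1.66, 6.22 and 9.04 CPM in neocortex and 8.9, 10.9 and 14.4 CPM in amygdala (-0.96 ± 0.18).

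The genes that define GABAergic and glutamatergic neurons lay on both sides. Of 4 GABA genes 1 was higher in neocortex and 2 in amygdala, with a median of -0.04, while their summed level was higher in neocortex in 11 of 15 animals. In animals 405, 413 and 425 alone the list median was -0.24, with 1 member called, in amygdala. Without animals 421, 425 and 4493 it was -0.10. Gad1 was higher in neocortex at 368, 574 and 689 CPM in neocortex and 269, 307 and 376 CPM in amygdala (0.79 ± 0.08; 0.26 in animals 405, 413 and 425), Gad2, which also makes GABA, was higher in amygdala at 134, 179 and 249 CPM in neocortex and 179, 265 and 327 CPM in amygdala (-0.49 ± 0.08; -0.86 in the same animals), and Slc32a1, the vesicular transporter, was not called at means of 133 and 129 CPM (0.08). Of the vesicular glutamate transporters, Slc17a7 was not called at 1297 and 1193 CPM (0.14) and Slc17a6, the form found in many subcortical neurons, was higher in amygdala at 18.8, 28.8 and 39.4 CPM in neocortex and 36.1, 63.2 and 103 CPM in amygdala (-1.15 ± 0.10). Camk2a, a kinase of excitatory synapses, was at 2305, 3285 and 4122 CPM in neocortex and 3389, 4299 and 5099.6 CPM in amygdala (-0.40 ± 0.07). The summed level of the glutamate genes was higher in neocortex in 2 of 15 animals. The median log2 fold change of the 5 tested was 0.14, and that of the 4 that reached the filter within the 2 regions was -0.13. The median of the 5 was 0.23 in animals 405, 413 and 425 alone and 0.01 without animals 421, 425 and 4493.

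Subunits of the GABA-A receptor lay on both sides, with 4 of 16 GABA receptor genes higher in neocortex and 7 in amygdala. The filter was reached within the 2 regions by 13 of the 16, of which 4 and 5 were called. Gabrd, the delta subunit of extrasynaptic receptors, was at 60.4, 75.8 and 106 CPM in neocortex and 22.1, 39.8 and 54.3 CPM in amygdala (0.90 ± 0.10) on the side of neocortex. Gabra2 was at 23.5, 32.4 and 42.7 CPM in neocortex and 42.2, 61.8 and 71.5 CPM in amygdala (-0.89 ± 0.10) and Gabrg1 at 16.7, 25.5 and 34.1 CPM in neocortex and 45.3, 54.3 and 70.9 CPM in amygdala without overlap (-1.16 ± 0.09), both higher in amygdala. Gabre and Gabrq, subunits known from the hypothalamus, had means of 1.93 and 3.38 CPM in amygdala and 0.0863 and 0.173 CPM in neocortex. Of 24 glutamate receptor genes 12 were higher in amygdala and 7 in neocortex. Grin3a, an NMDA receptor subunit, was at 2.15, 12.2 and 17.9 CPM in neocortex and 20.9, 33.7 and 47 CPM in amygdala (-1.57 ± 0.12), and Grm5 at 99.1, 152 and 204 CPM in neocortex and 201, 239.9 and 296 CPM in amygdala (-0.73 ± 0.08). The presynaptic receptors Grm2, at 46.3, 67.9 and 93.7 CPM in neocortex and 23.2, 31.2 and 42.1 CPM in amygdala (1.11 ± 0.09), and Grm4, at 18.7, 29.2 and 51.4 CPM in neocortex and 6.38, 13 and 21.1 CPM in amygdala (1.2 ± 0.12), were higher in neocortex. They were the 2 members called there at 2-fold, and in animals 405, 413 and 425 alone their log2 fold changes were 0.66 and 0.86 and none was called at 2-fold.

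Potassium channel genes were more often higher in neocortex, with 25 of 50 against 12 in amygdala and a median of 0.21. Channels of fast-spiking cells were among them. Kcnc1 and Kcnc2, which let neurons fire at high rates, had log2 fold changes of 0.52 and 0.53, and Kcna1 and Kcna2, channels of axons, of 1.03 and 0.81. Kcns1 was at 23.3, 33.2 and 42.9 CPM in neocortex and 9.51, 15.1 and 21.1 CPM in amygdala (1.09 ± 0.11). Kcnn3, a calcium-activated channel, at 2.64, 12.2 and 15.4 CPM in neocortex and 23.6, 30.8 and 37.3 CPM in amygdala (-1.51 ± 0.14), and Kcna3, at 1.17, 5.05 and 9.68 CPM in neocortex and 9.998, 14.1 and 18 CPM in amygdala (-1.55 ± 0.18), were higher in amygdala without overlap. Of 28 sodium, calcium and HCN channel genes 11 were higher in neocortex and 12 in amygdala, with a median of 0.04, which was -0.06 in animals 405, 413 and 425 alone. Scn1a, the sodium channel of interneurons, had means of 152 and 75.1 CPM (0.98) and was higher in neocortex. Cacna1e, an R-type calcium channel, at 24.9, 121 and 177 CPM in neocortex and 187, 259.8 and 365 CPM in amygdala (-1.22 ± 0.18), Scn9a, at 1.96, 2.58 and 4.1 CPM in neocortex and 3.8, 5.42 and 9.57 CPM in amygdala (-1.05 ± 0.13), and Scn3b, at means of 98.6 and 172 CPM (-0.80), were higher in amygdala. Cacna1e was at 24.9 CPM in the neocortex of animal 427, the lowest library. Among 29 genes of cyclic nucleotide and RGS signalling, 6 were higher in neocortex, led by Rgs4 at 370.2, 465 and 549 CPM in neocortex and 173, 198 and 261 CPM in amygdala (1.16 ± 0.07) with Adcy2 at 174, 205 and 216 CPM in neocortex and 96.7, 132 and 147 CPM in amygdala (0.65 ± 0.06). In amygdala 12 were higher, led by Gng7, a G protein subunit known from the striatum, at 78.2, 96.2 and 129 CPM in neocortex and 137, 205 and 306 CPM in amygdala (-1.09 ± 0.08) and Rgs14 at 36.2, 40.8 and 46.7 CPM in neocortex and 64.6, 84.8 and 109 CPM in amygdala (-1.07 ± 0.06).

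Genes of cell adhesion and axon guidance were more often higher in amygdala, with 13 of 25 cadherins and protocadherins against 7 in neocortex, and 24 of 51 axon guidance genes against 15. Pcdh8 was at 26.9, 34.8 and 47 CPM in neocortex and 82.3, 106 and 132 CPM in amygdala (-1.6 ± 0.08) and Pcdh11x at 0.783, 4.8 and 9.45 CPM in neocortex and 9.63, 14.2 and 18.4 CPM in amygdala (-1.59 ± 0.18), both without overlap, and Cdh6 was at 5.63, 10.6 and 15.8 CPM in neocortex and 2.79, 3.96 and 8.06 CPM in amygdala (1.22 ± 0.14) and Cdh12 at 9.08, 15 and 21 CPM in neocortex and 3.12, 7.86 and 12.7 CPM in amygdala (0.99 ± 0.15) on the side of neocortex. Nrp2, a semaphorin receptor, was at 9.74, 18.7 and 23 CPM in neocortex and 75, 95.2 and 103 CPM in amygdala (-2.32 ± 0.09, adjusted p = 1.8e-15) and Epha6, an ephrin receptor, at 5.58, 9.23 and 14.4 CPM in neocortex and 22, 27.8 and 45.2 CPM in amygdala (-1.68 ± 0.13). All amygdala libraries of both were above all neocortex libraries. Sema7a, at 169, 236 and 280.2 CPM in neocortex and 49.2, 64.9 and 90.3 CPM in amygdala (1.81 ± 0.06), and Ephb6, at means of 159 and 47.8 CPM (1.74), were higher in neocortex with Robo3.

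Among 27 synaptic organizer genes 12 were higher in amygdala and 7 in neocortex. The cerebellins Cbln2, at 40.3, 48.6 and 59.98 CPM in neocortex and 8.05, 14.6 and 24.1 CPM in amygdala (1.65 ± 0.10), and Cbln4, at 23.9, 37.1 and 47.6 CPM in neocortex and 8.1, 14.9 and 23.3 CPM in amygdala (1.32 ± 0.11), which bridge neurexins to postsynaptic receptors, were higher in neocortex. Nptxr, the neuronal pentraxin receptor, was at 20.2, 49.7 and 64.1 CPM in neocortex and 82, 139 and 210.1 CPM in amygdala (-1.64 ± 0.15) and Nxph4 at 2.14, 5.67 and 11.2 CPM in neocortex and 6.21, 9.86 and 19.4 CPM in amygdala (-0.78 ± 0.18; -2.05 in animals 405, 413 and 425) on the side of amygdala. Of 11 genes of the perineuronal and extracellular matrix 3 were higher in neocortex and 8 in amygdala. Hapln4, a link protein of perineuronal nets, was at 139, 167 and 183 CPM in neocortex and 68.2, 76.7 and 105 CPM in amygdala (1.06 ± 0.05), Hapln2, a link protein of nodes of Ranvier, at 23.6, 31.5 and 37.9 CPM in neocortex and 7.91, 11.3 and 30.2 CPM in amygdala (1.33 ± 0.11), and Acan, the aggrecan core of nets around parvalbumin cells, at means of 9.52 and 6.33 CPM (0.60). Ptprz1, a phosphatase receptor of glia, was at 76.2, 169 and 213 CPM in neocortex and 266, 342 and 404 CPM in amygdala (-1.12 ± 0.11) and Tnc, tenascin C, at 2.3, 3.22 and 5.63 CPM in neocortex and 6.02, 8.15 and 13.1 CPM in amygdala (-1.32 ± 0.12) on the other side.

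Immediate early genes, which are induced within minutes of neuronal activity, were more often higher in neocortex, with 8 of 14 against 1 in amygdala and a median of 0.39. Arc, a regulator of synaptic strength, was at 154, 263 and 405 CPM in neocortex and 42.3, 83.3 and 131 CPM in amygdala without overlap (1.65 ± 0.08, adjusted p = 1.3e-13), Egr1 had means of 266 and 116 CPM (1.21 ± 0.09), Nr4a1 was at 68.3, 95.4 and 150.04 CPM in neocortex and 24.7, 45.1 and 70.4 CPM in amygdala (1.17 ± 0.09), and Ier2 at 7.23, 11.4 and 18.5 CPM in neocortex and 1.53, 4.71 and 10.8 CPM in amygdala (1.3 ± 0.18). Fos had means of 29.2 and 19.96 CPM (0.56) and Npas4 of 19.4 and 10.9 CPM (0.81). Nr4a3 was the member higher in amygdala, at 1.81, 6.56 and 11.8 CPM in neocortex and 6.5, 11.4 and 17.4 CPM in amygdala (-0.71 ± 0.12), and Fosb, Egr4, Egr3, Egr2 and Btg2 did not pass the test. The summed level of the list was higher in neocortex in 15 of 15 animals. In animals 405, 413 and 425 alone, 5 members were called in neocortex and 1 in amygdala, in a fit that called 962 and 1224 genes in all.

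Single interneuron genes lay on both sides. Of 14, 6 were higher in neocortex, with Pvalb and Lamp5 at 2-fold, 5 were higher in amygdala and 3 were not called, with a median of 0.27, which was -0.17 in animals 405, 413 and 425 alone. Their summed level was 1178 to 1534 CPM in neocortex and 899 to 1154 CPM in amygdala, without overlap and higher in neocortex in 15 of 15 animals. Lamp5 alone, at 213 to 341 CPM in neocortex and 52.9 to 84.5 CPM in amygdala, made up much of that gap. In amygdala Erbb4 was called at 2-fold, Cnr1, the cannabinoid receptor, was at 75.3, 127 and 154 CPM in neocortex and 118, 160.03 and 221 CPM in amygdala (-0.46 ± 0.09), and Reln and Lhx6 had log2 fold changes of -0.37 and -0.37.

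Of the markers of glia, all 12 oligodendrocyte genes were higher in neocortex. Their median was 0.98, and their summed level was 4383 to 5992 CPM in neocortex and 1873 to 4609 CPM in amygdala, higher in neocortex in 15 of 15 animals. Mog was at 43.8, 52.5 and 69.6 CPM in neocortex and 13, 20.8 and 38.5 CPM in amygdala (1.33 ± 0.08) and Mag at 140.3, 164 and 197 CPM in neocortex and 47.7, 69.9 and 119.995 CPM in amygdala (1.23 ± 0.09), while Mbp, the myelin basic protein, had means of 2752 and 1479.97 CPM (0.92). Precursors went the other way, with 3 of 5 markers higher in amygdala and a summed level of 271 to 323 CPM in neocortex and 326 to 510.5 CPM in amygdala, which did not overlap. Pdgfra, their growth factor receptor, was at 33, 57.6 and 62.7 CPM in neocortex and 96.6, 111 and 142 CPM in amygdala (-1.09 ± 0.08) and Cspg4 at 15.4, 18.1 and 29.4 CPM in neocortex and 26.1, 35.9 and 45.3 CPM in amygdala (-0.91 ± 0.07). Of 11 astrocyte markers 7 were higher in amygdala and none in neocortex. Agt, angiotensinogen, was at 7.63, 12.1 and 23.8 CPM in neocortex and 61.7, 82.9 and 146 CPM in amygdala (-2.73 ± 0.11, adjusted p = 1.2e-14), Aqp4, a water channel, at 67.7, 113 and 143 CPM in neocortex and 125, 215 and 284 CPM in amygdala (-0.95 ± 0.12), and Gfap at means of 230.03 and 411 CPM (-0.80). Of 10 microglia markers 6 were higher in amygdala by small amounts, with Csf1r at 93.9, 103 and 120.2 CPM in neocortex and 99.8, 143 and 159 CPM in amygdala (-0.41 ± 0.06) and P2ry12 at 16.4, 30.1 and 38.3 CPM in neocortex and 25.5, 35.7 and 49.2 CPM in amygdala (-0.39 ± 0.11).

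Vascular and meningeal markers were called in amygdala or not at all. The amygdala library of virgin animal 4486 was the lowest for Kdr, Flt1, Aldh1a2, Igf2 and Hbb-bs, and the next lowest were at 8.35, 29.4, 11.01, 45.2 and 7.96 CPM. Of 9 endothelial markers 4 were higher in amygdala, among them Kdr at 3.98, 8.29 and 16.1 CPM in neocortex and 3.04, 13.6 and 21.2 CPM in amygdala (-0.61 ± 0.15) and Flt1 at 9.88, 32.2 and 46.1 CPM in neocortex and 8.23, 46.4 and 70.7 CPM in amygdala (-0.54 ± 0.17), and the summed level was 131 to 354 CPM in neocortex and 89.7 to 436 CPM in amygdala. Of 6 meningeal fibroblast markers 5 were higher in amygdala, with Aldh1a2 at 6.39, 9.42 and 13.2 CPM in neocortex and 5.68, 17.6 and 30.5 CPM in amygdala (-0.79 ± 0.15) and Igf2 at 39.7, 53.2 and 69.1 CPM in neocortex and 21.4, 74.3 and 174 CPM in amygdala (-0.56 ± 0.20), and the sum was 87.3 to 151 CPM in neocortex and 54.0 to 327 CPM in amygdala. Hbb-bs was the blood marker called, at 8.02, 12.8 and 25.8 CPM in neocortex and 5.68, 23.5 and 35.2 CPM in amygdala (-0.49 ± 0.18). The calls of Igf2 and Hbb-bs were lost when single animals were left out. Of 6 choroid plexus markers Clic6, at 1.76, 3.42 and 7.19 CPM in neocortex and 2.36, 11.4 and 26.3 CPM in amygdala (-1.51 ± 0.18), and Kl, at 2.35, 3.65 and 7.02 CPM in neocortex and 3.18, 10.3 and 15.9 CPM in amygdala (-1.27 ± 0.16), were higher in amygdala, and Aqp1, at 0.293, 8.22 and 16.2 CPM in neocortex and 0, 0.496 and 1.63 CPM in amygdala (3.62 ± 0.51), was higher in neocortex in 13 of 15 animals and had a log2 fold change of -0.29 in animals 405, 413 and 425, whereas Ttr, the main product of the plexus, was not called at means of 24.1 and 21.9 CPM (0.07).

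Markers of the olfactory bulb, the hypothalamus and the striatum moved with the regions, and those of other neighbouring tissue lay on both sides or were mostly not called. Of 9 olfactory bulb markers 7 were higher in neocortex at 2-fold and none in amygdala, with a median of 3.36. In animals 405, 413 and 425 none was called at 2-fold in neocortex and 2 in amygdala, with a median of -0.13. These animals were set apart by the low sum of the same 9 markers in their neocortex libraries, so this drop follows from that choice and is no separate result. Tbx21, a factor of mitral cells, was at 0.292, 5.28 and 9.15 CPM in neocortex and 0, 0.058 and 0.657 CPM in amygdala. Of 11 tested hypothalamic markers 8 were higher in amygdala at 2-fold, but 9 of the 11 passed the filter through other regions, with Pomc and Agrp at means of 2.87 and 0.310 CPM in neocortex and 3.32 and 0.282 CPM in amygdala. Of 13 striatal medium spiny neuron markers 12 were higher in amygdala, 6 at 2-fold, with a median of -0.97, and their sum was 502 to 746 CPM in neocortex and 921 to 1645 CPM in amygdala. The 6 basal forebrain cholinergic markers were too low to be tested, with sums of 1.17 to 3.34 CPM in neocortex and 2.71 to 39.4 CPM in amygdala, where animals 405 and 409 were highest. Of 7 tested hippocampal markers 1 was higher in neocortex, 3 in amygdala and 3 were not called. Their median was -0.08, with -0.66 in animals 405, 413 and 425 alone and -0.18 without animals 421, 425 and 4493. Their median over the only 3 of the 7 that reached the filter within the 2 regions was -0.54. They were at a sum of 23.2 to 39.8 CPM in neocortex and 24.5 to 44.3 CPM in amygdala, against a median of 556 CPM in hippocampus, with Prox1 at 1.42, 5.12 and 7.93 CPM in neocortex and 4.17, 8.71 and 13.4 CPM in amygdala (-0.82 ± 0.14) and C1ql2 at 1.91, 3.2 and 6.37 CPM in neocortex and 2.16, 4.52 and 10.9 CPM in amygdala (-0.54 ± 0.19, a call lost without animal 418 or 4489) in the direction of amygdala and Lct in that of neocortex (0.61). Of 6 tested thalamic markers 2 were higher in amygdala and none in neocortex, and they summed to 62.4 to 87.9 CPM in neocortex and 92.5 to 150.2 CPM in amygdala. The 2 called were Slc17a6 and Prkcd, which are also on the glutamate identity and central amygdala lists. Of the 6 claustrum and endopiriform markers 2 were higher in each region, with a median of -0.17 and a summed level that was higher in neocortex in 11 of 15 animals, with Nr4a2 (0.31) and Synpr (0.28; -0.36 in animals 405, 413 and 425) in neocortex and Oprk1 (-0.63) and Gnb4 (-0.16, a call lost without any of 10 single animals) in amygdala. Of 5 cerebellar markers, 1 of which reached the filter within the 2 regions, 1 was called, in amygdala, a call lost with library totals alone and with limma-trend on the deposited log2 values, and they summed to 14.8 to 21.4 CPM in neocortex and 11.6 to 27.9 CPM in amygdala, against a median of 5574 CPM in cerebellum. The part of neighbouring tissue in any single gene's value was not tested.

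**Figure D4:**
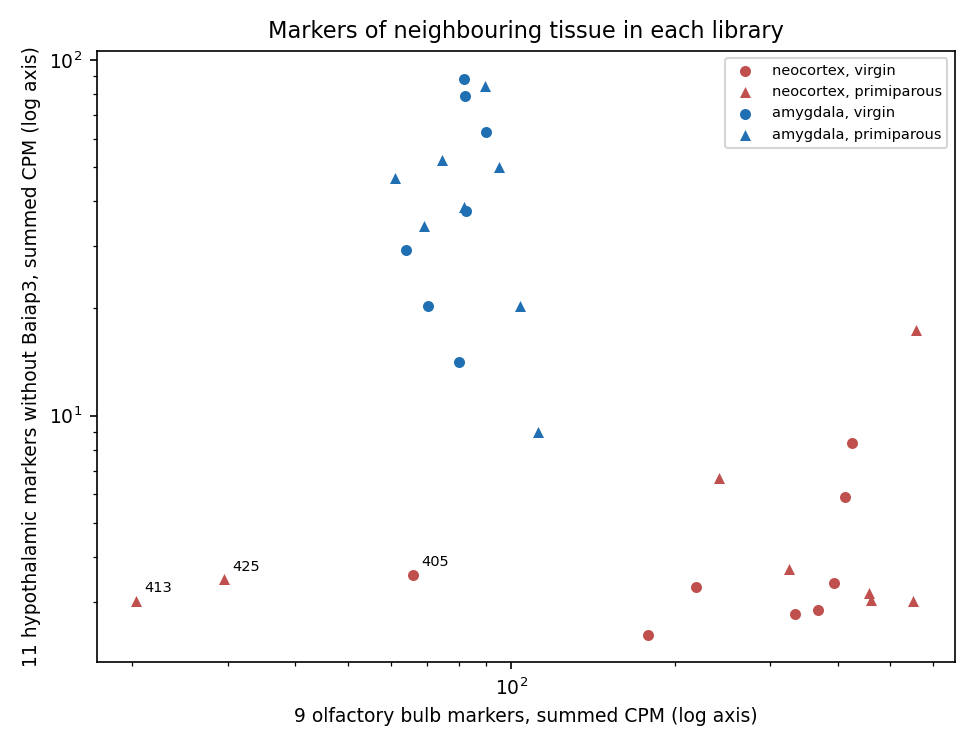
Summed CPM of 9 olfactory bulb markers (horizontal, log axis) and of 11 hypothalamic markers, Baiap3 left out (vertical, log axis), in each of the 31 libraries, with neocortex in red, amygdala in blue, circles for virgin and triangles for primiparous females. The amygdala libraries lie at 9.01 to 88.6 CPM of hypothalamic markers and the neocortex libraries at 2.42 to 17.4 CPM, and the neocortex libraries of animals 405, 413 and 425 stand apart at 20.3 to 66.0 CPM of olfactory bulb markers.

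The genes called at 2-fold were followed in animals 405, 413 and 425, whose own fit called 237 genes at 2-fold in neocortex (1.82% of all tested) and 421 in amygdala (3.23%). Of the 274 neocortex genes 206 were called in the same direction in those 3 animals alone, 185 had a log2 fold change of at least 1, and 15 had the opposite sign. Of the 461 amygdala genes 371 were called in the same direction, 340 had a log2 fold change of -1 or lower, and 7 had the opposite sign. The median log2 fold change moved from 1.34 to 1.19 for the first set and from -1.40 to -1.36 for the second. Since these animals are part of the 15, this is a description and no replication. Without animals 421, 425 and 4493, 244 and 443 of the genes were still called at 2-fold.

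Other called genes named above also had log2 fold changes in animals 405, 413 and 425 that stood more than 1.5 times nearer to 0 or farther from it than in all animals. Of those higher in neocortex, Cdh6 was at 0.80, Ier2 at 0.73, Fos at 0.06, Acan at 0.18, Esrra at 0.48 and Chrm2 at 0.47, all nearer to 0. Of those higher in amygdala, Erbb4 was at -0.78, Prox1 at -0.46, Chrna7 at -0.36, Thra at -0.33 and Cnr1 at -0.27, and Lhx2, Lhx6, Oprk1, Camk2a, P2ry12 and Adra1a were between -0.09 and -0.01. Farther from 0 were Tacr1 at -3.43, Aldh1a2 at -1.3, Igf2 at -1.08, Reln at -0.86 and Gnb4 at -0.31 in the direction of amygdala, and Lct at 1.17, Nr4a2 at 0.64, Pgr at 0.62 and Nr3c1 at 0.36 in that of neocortex. Of the lists, the neuropeptide genes had 3 called in neocortex and 11 in amygdala with a median of -0.73 in these 3 animals, against -0.24 in all. The claustrum and endopiriform markers had a median of -0.07 in these animals, against -0.17. The shifts of the hippocampal, GABA identity and glutamate identity medians are given above. The astrocyte markers had 4 called in amygdala with a median of -0.30, against -0.47, and none of the microglia, hippocampal or blood markers was called. The median of the microglia markers was -0.17, against -0.20. The fit on 3 animals rests on fewer samples and called 962 genes in neocortex and 1224 in amygdala, against 3518 and 3334 on all animals. After the length and GC correction over all animals, the calls in amygdala were 2 of the upper-layer genes, 5 of the precursor markers and 3 of the meningeal markers. They were also 3 of the blood markers, 3 of the cerebellar markers and 1 of the GABA identity genes.

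Virgin and primiparous females are different animals, so each group gives the comparison separately. In virgins 2414 genes were higher in neocortex (18.5%) and 2312 in amygdala (17.8%), of which 245 (1.88%) and 415 (3.19%) at 2-fold. The medians of the 274 and 461 genes called on all animals were 1.30 and -1.32 in virgins and 1.44 and -1.49 in primiparous females. In primiparous females 2480 were higher in neocortex (19.1%) and 2882 in amygdala (22.1%), of which 313 (2.40%) and 530 (4.07%) at 2-fold. Of the 245 neocortex genes of virgins 245 had the same sign in primiparous females, 233 were called in the same direction and 189 were called at 2-fold. Of the 415 amygdala genes of virgins the counts were 415, 391 and 338. In the other direction, of the 313 neocortex genes of primiparous females 309 had the same sign in virgins, 291 were called in the same direction and 189 at 2-fold, and of the 530 amygdala genes the counts were 530, 489 and 338.

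**Figure D5:**
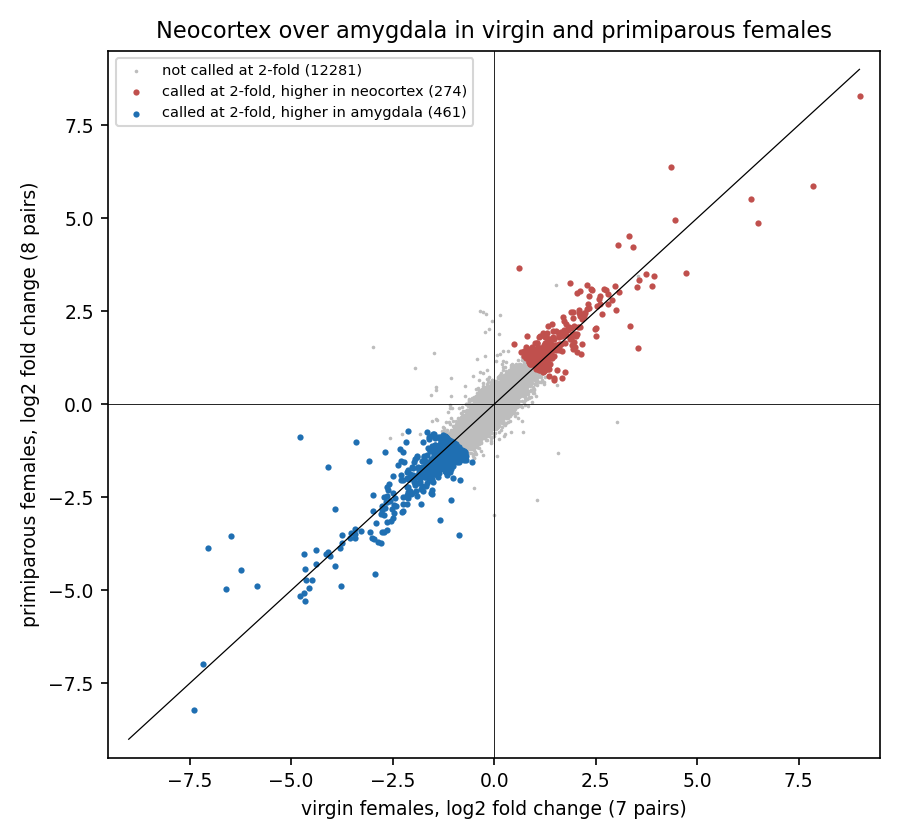
Log2 fold change of neocortex over amygdala in virgin females (horizontal axis, 7 pairs) and primiparous females (vertical axis, 8 pairs) for each of the 13016 genes, with the line of equal values. The 274 genes called at 2-fold in neocortex (red) and the 461 in amygdala (blue), chosen on all 15 animals, lie on the same side of 0 in both groups.

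The difference between the regions was tested for a change with reproductive experience by an interaction term. It called 0 of 13016 genes (0.00%) in the edgeR quasi-likelihood test, while 2259 genes (17.4%) had an unadjusted p under 0.05. DESeq2 called 202 genes, edgeR without the replicate block called 145, and edgeR without animal 413 called 833. The count of 0 thus depends on the tool, on the block and on that animal, and the cause was not tested. Also 0 were called by limma-voom, by limma-trend on the deposited log2 values, under both other scalings and after the length and GC correction. The 3 genes with the smallest interaction p were Vgf, a secreted neuropeptide precursor, Egr4 and Tiparp. The log2 fold change of Vgf was -0.36 ± 0.08 in virgins and 0.33 ± 0.09 in primiparous females, a difference of 0.72 ± 0.12 (edgeR adjusted p = 0.088). For Egr4, an activity-induced transcription factor, the values were -0.45 ± 0.09 and 0.40 ± 0.12 (adjusted p = 0.110), and for Tiparp, a target of the aryl hydrocarbon receptor, they were 0.57 ± 0.10 and -0.24 ± 0.12 (adjusted p = 0.128). None of the 3 passed this edgeR test, which used all animals and the block.

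Levels in the rest of the series were set beside the comparison. Of the 274 neocortex genes, 128 had their highest mean CPM of the 5 regions in neocortex, 105 in cerebellum, 22 in hippocampus and 19 in hypothalamus. Of the 461 amygdala genes, 95 were highest in amygdala, 250 in hypothalamus, 66 in cerebellum and 50 in hippocampus. Part of this follows from the filter, which 38 of the 274 and 141 of the 461 genes passed through other regions. Of the 236 neocortex genes that reached it within the 2 regions 127 were highest in neocortex and 76 in cerebellum, and of the 320 such amygdala genes 92 were highest in amygdala and 144 in hypothalamus. Among the 461 amygdala genes 412 were higher in hypothalamus than in neocortex, 374 in hippocampus and 230 in cerebellum. Among the 274 neocortex genes 146 were higher in hypothalamus than in amygdala, 187 in hippocampus and 170 in cerebellum. Each set was chosen as low in the region it is set against here, so these counts follow in part from that choice. Of the leading genes, Baiap3 had a mean of 761 CPM in hypothalamus, Dlk1 of 352 CPM and Htr2c of 107 CPM, and Pvalb had a mean of 697 CPM in cerebellum. These levels were not tested.

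The regions were alike in the spread between libraries. The median standard deviation of log2(CPM + 4) over genes was 0.172 in neocortex and 0.173 in amygdala, and 6359 of 13016 genes varied more in neocortex. The median standard deviation of the paired difference was 0.258. Among genes with at least 10 CPM in either region it was largest for Lars2, a mitochondrial leucyl-tRNA synthetase, and for the genes with the Entrez identifiers 19791 and 100861531, which have no name in the tables used here. Lars2 was at 261, 398 and 6198 CPM in neocortex and 135, 206 and 526.1 CPM in amygdala (1.21 ± 0.53, adjusted p = 0.068, not called), and gene 19791 at 231, 385 and 6180 CPM in neocortex and 81.7, 269 and 821 CPM in amygdala. The neocortex libraries of animals 421, 425 and 4493 were the highest for both. Of 76 cytosolic ribosomal protein genes 4 were higher in neocortex and 7 in amygdala, with a median of -0.05, but after the length and GC correction 2 and 37 were called with a median of -0.12. Of 37 genes of respiratory complex I 26 were higher in neocortex and none in amygdala, with a median of 0.22, and 19 were called without animals 421, 425 and 4493. In animals 405, 413 and 425 alone 1 was called, with a median of 0.146, in a fit that called 962 genes in neocortex in all, against 3518 in the fit on all animals. The 13 messenger genes of the mitochondrial genome were at a summed 23944 to 45943 CPM in neocortex and 33996 to 67540 CPM in amygdala.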

How the data were processed

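Neocortex and amygdala RNA of female mice was sequenced from polyadenylated messages after ERCC controls were added, with a kit that does not mark strand, as single-end reads. By the study's methods and the labels, the authors aligned reads to mm10 with HISAT2, counted uniquely mapped reads per gene with featureCounts and removed 3 outlier libraries, and they deposited raw counts for 27179 genes in 77 libraries. They also deposited log2 values of 13016 genes, which equal the log2 of scaled counts, each library's count over its median-of-ratios factor, with 4 added before the log. These were used in 1 alternative alone. Near-identical, overlapping and antisense genes may share reads. The strand setting is not given in the sources used here.

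From the counts, CPM were computed by library total, and the 13016 genes that reached 5 CPM in 8 or more of the 77 libraries were tested with edgeR 4.0.16 in R 4.3.3 (TMM factors, robust quasi-likelihood F-test, Benjamini-Hochberg adjustment). The animal was a block, because both regions came from the same animal. Deviations of the regions of 1 animal from the region means correlated at a median of 0.058, and those of different animals at -0.0097. Standard errors are the log2 fold change over the root of F. The test was checked on simulated counts. Replicates are separate animals. Symbols came from RefSeq by Entrez ID, for 12899 of the tested genes. Promoters came from the RefSeq table for GRCm38.p6, by Entrez ID. Those shown were picked by hand among leading genes with 1 start in that table.

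The genes named are the 15 highest and 15 lowest log2 fold changes among called genes with at least 10 CPM in the higher region and 1 direction in all pairs, up to 2 called members of each list in each direction with at least 5 CPM, the 3 smallest interaction p and the 3 largest spreads between pairs. Genes withheld from the text are not reported here and remain in the fits and list counts. Other members named beside them were chosen after their values were seen. The comparison, the 45 lists and the rules were chosen with earlier results of these data known. Alternatives were limma 3.58.1 (voom and trend), DESeq2 1.42.0, other scalings and filters, a length and GC correction, no block, and leaving out animals. The fits on animals 405, 413 and 425 alone and without animals 421, 425 and 4493 were chosen after seeing the data.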

Additional observations from a re-analysis of the deposited data

Results flagged for a closer look

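The paired differences of the named genes and of the summed lists, as log2(CPM + 4) of neocortex minus amygdala within an animal, were searched for single animals that stood apart from the rest of their group. Of 364 groups 45 had such an animal (12.4%), while chance gives about 1 in 20 for separate groups. These groups share animals and genes, so the excess was not tested. Most flags came from 3 animals.

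Virgin animal 4486 was the highest of its group for Ighm (2.98, group median 1.94), Agt (-1.35, group median -2.59) and C1ql2 (0.75, group median -0.30). It was also the highest for the summed cytosolic ribosomal protein genes (0.62, group median -0.15) and the summed respiratory complex I genes (0.58, group median 0.19). Virgin animal 4486 was the lowest of its group for Chrm3 (0.067, group median 0.90), Chrna7 (-1.39, group median -0.37), Grin3a (-1.79, group median -1.08) and Grm5 (-1.16, group median -0.50). It was also the lowest for Cacna1e (-2.04, group median -0.79), Rgs4 (0.54, group median 1.32), Cnr1 (-1.23, group median -0.11) and the summed GABA receptor genes (-0.43, group median 0.17). The same animal stood lowest for the summed axon guidance genes (-0.49, group median -0.07). Primiparous animal 427 was the highest of its group for Ovol2 (2.15, group median 1.51), Crh (1.52, group median 0.51), the summed neuropeptide genes (0.81, group median 0.05) and the summed cytosolic ribosomal protein genes (0.62, group median -0.07). It was also the highest for the summed respiratory complex I genes (0.99, group median 0.31). Primiparous animal 427 was the lowest of its group for Cux2 (-0.26, group median 0.64), Cacna1e (-3.20, group median -1.21), Nrp2 (-2.90, group median -2.15) and the summed projection neuron genes of the upper cortical layers (-0.55, group median -0.21). It was also the lowest for the summed glutamate identity genes (-0.78, group median -0.26) and the summed axon guidance genes (-0.48, group median -0.12). Virgin animal 405 was the lowest of its group for Syt6 (0.42, group median 1.82), Meis2 (-0.34, group median 0.67), Sp8 (0.24, group median 2.17) and Cbln2 (0.99, group median 1.48). Virgin animal 405 was the highest of its group for Esr1 (-0.75, group median -1.44), Camk2a (0.19, group median -0.34) and the summed glutamate identity genes (0.19, group median -0.17). Primiparous animal 421 was the lowest of its group for Hsd11b1 (-0.16, group median 0.84) and the summed microglia markers (-0.75, group median -0.29). Primiparous animal 421 was the highest of its group for Chrm3 (1.55, group median 0.74). Virgin animal 4488 was the lowest of its group for Hkdc1 (0.76, group median 1.72) and 9130024F11Rik (0.95, group median 1.9). Virgin animal 4488 was the highest of its group for Arhgap36 (-1.14, group median -1.98). Virgin animal 409 was the lowest of its group for Aqp4 (-1.10, group median -0.47) and the summed perineuronal and matrix genes (-0.38, group median -0.24). Primiparous animal 413 was the lowest of its group for Vgf (-0.24, group median 0.40) and Egr4 (-0.34, group median 0.40). Primiparous animal 418 was the highest of its group for Cyp11a1 (1.38, group median 0.88). Virgin animal 4489 was the highest of its group for the summed immediate early genes (1.248, group median 0.73). Virgin animal 4490 was the lowest of its group for Cyp11a1 (0.18, group median 0.80). The neocortex library of animal 405 was 1 of the 3 with the least olfactory bulb markers, and the neocortex and amygdala libraries of animal 427 held the most prolactin transcripts (75.5 and 125 CPM). Their part in these values was not tested.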

How the results depend on the processing

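The counts of called genes kept within 1.5 times under limma-voom, limma-trend on the deposited log2 values, DESeq2, both other scalings and the length and GC correction. All 274 and 461 genes were also called in the same direction without the replicate block, which gave 3808 and 3553 genes called and 272 and 474 at 2-fold. Without a filter (22585 genes) the genes called at 2-fold were 905 in neocortex and 706 in amygdala, with 480 in neocortex in virgins and 687 in primiparous females. A filter on the 31 libraries alone left 12119 genes and 235 and 320 at 2-fold. Animals 405, 413 and 425 alone gave 962 and 1224 called genes, on fewer samples. In that fit 6 genes named by the rule changed sign, Meis2 (-0.32), Tshz1 (-0.41), Sp8 (-0.13), Vipr2 (-0.69), Aqp1 (-0.29) and Synpr (-0.36), as did Pax6 and Dlx1 among those named beside them, and 25 kept their direction and lost the call; the cause was not tested. Leaving out 1 animal gave 3337 to 3537 and 3085 to 3279 called genes, and 266 to 291 and 436 to 468 at 2-fold. It gave 237 to 257 and 395 to 418 at 2-fold in virgins, and 307 to 336 and 460 to 560 in primiparous females. Single animals decided the calls of Gnb4, Igf2, Hbb-bs and C1ql2. The interaction, with 0 genes called, had 145 without the replicate block, 202 by DESeq2 and 2 without a filter, and 0 to 833 when 1 animal was left out (833 without animal 413 and 2 without animal 4489). Genes with an unadjusted interaction p under 0.05 numbered 1018 after the length and GC correction and 1594 to 3472 when 1 animal was left out. With TMM-scaled CPM, 12 of the 274 neocortex genes were highest in hypothalamus. The median of the deep-layer list, -0.02, was 0.06 after the length and GC correction. No scaling moved the median of all genes by over 0.1. Depth limits genes near 0 in a region. The folds of Omp, Ovol2, Aqp1, Irs4, Avp, Six3, Arhgap36, Magel2 and Oprm1 rest on few counts in the lower region, and none is given for S100a5 or Calcr.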
